A study of Homo sapiens with 6 samples.

Results

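The genes of 9 chemokines and of 1 scavenger receptor were followed in HSC-4 cells treated with a Notch inhibitor: *CXCL14*, *CXCL1*, *CXCL2*, *CXCL3*, *CXCL8*, *CXCL10*, *CXCL16*, *CCL2*, *CCL20* and *ACKR3*. These 10 genes, of 58884 in the count tables, were picked by symbol when their fold changes in this same contrast were already known. Their levels and differences are therefore given as a description, without a test. The further gene lists below were also chosen with earlier results of these data known. HSC-4 cells are an established cell line from a human oral squamous cell carcinoma. DAPT inhibits γ-secretase, the protease that cuts activated Notch receptors and frees their intracellular domain. RNA was sequenced from 3 samples exposed to 50 µM DAPT for 24 h and from 3 control samples. The study's methods give DMSO as the vehicle of the controls, whereas the design text deposited with the data names growth medium, and the count columns of the controls carry the unexplained letters GM. If the controls received medium without vehicle, effects of DMSO and of DAPT cannot be told apart. A single cell line, 1 dose and 1 time were measured, and no source used here says whether the 3 samples of a group came from separate cultures, so p-values measure only the spread between these samples, which may be technical.

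Chemokines are small secreted proteins that guide leukocytes along concentration gradients through receptors coupled to G proteins. CXC chemokines with an ELR motif, among them CXCL1, CXCL2, CXCL3, CXCL6 and CXCL8, attract neutrophils through CXCR2, and several of their genes lie side by side on chromosome 4. Transcription of many inflammatory chemokines in epithelial cells is induced through NF-κB and AP-1, and their mRNAs carry AU-rich elements that speed decay. ACKR3 binds CXCL12 and CXCL11, couples to arrestins instead of G proteins, and removes these ligands from the surroundings of the cell.

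The sequences just upstream of the RefSeq gene starts are shown because *CXCL1*, which had lower counts with DAPT, has a proximal promoter similar to those of *CXCL2* and *CXCL3*, whose groups overlapped. *CXCL6*, *CXCL8* and *CXCL14*, also lower, are shown beside them. RefSeq promoters on GRCh38.p14 were held for 7 of the 10 genes, with no entry for *ACKR3*, *CXCL16* or *CCL2*. Each line gives the 250 bases before the RefSeq start, 5′ to 3′ on the strand of the gene, and capitals mark GGAATTTCC and TGANTCA, the latter a form of the AP-1 consensus. Distances are counted from the RefSeq start, which differs for some genes from that of the Ensembl annotation used for counting. The *CXCL14* window lies inside its Ensembl gene. The windows of *CXCL3*, *CXCL6*, *CXCL8* and, by its last base, *CXCL2* reach into theirs. The windows are chr4:73869143-73869392 on the plus strand for *CXCL1*, chr4:73836428-73836677 on the plus strand for the neighbouring *CXCL6*, chr4:73740319-73740568 on the plus strand for *CXCL8*, chr4:74099196-74099445 on the minus strand for *CXCL2*, chr4:74038690-74038939 on the minus strand for *CXCL3* and chr5:135578992-135579241 on the minus strand for *CXCL14*.
CXCL1: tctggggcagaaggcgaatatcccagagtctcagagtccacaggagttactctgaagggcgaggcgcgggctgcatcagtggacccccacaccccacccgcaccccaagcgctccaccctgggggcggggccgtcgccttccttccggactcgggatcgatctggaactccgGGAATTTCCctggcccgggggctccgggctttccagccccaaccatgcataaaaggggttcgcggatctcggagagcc
CXCL6: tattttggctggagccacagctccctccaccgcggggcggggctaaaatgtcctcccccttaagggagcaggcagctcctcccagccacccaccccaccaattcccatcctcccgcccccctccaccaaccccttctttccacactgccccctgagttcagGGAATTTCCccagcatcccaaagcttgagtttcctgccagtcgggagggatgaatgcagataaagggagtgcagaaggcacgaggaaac
CXCL8: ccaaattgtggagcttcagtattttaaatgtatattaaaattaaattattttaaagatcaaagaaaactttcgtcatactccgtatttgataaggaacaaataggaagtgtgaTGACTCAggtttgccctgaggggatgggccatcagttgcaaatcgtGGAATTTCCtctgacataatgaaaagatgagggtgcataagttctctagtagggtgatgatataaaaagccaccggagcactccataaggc
CXCL2: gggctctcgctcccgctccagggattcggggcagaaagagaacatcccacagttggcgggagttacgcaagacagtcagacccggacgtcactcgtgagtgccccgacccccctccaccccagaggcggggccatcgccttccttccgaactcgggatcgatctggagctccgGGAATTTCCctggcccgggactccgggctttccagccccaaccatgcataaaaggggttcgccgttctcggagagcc
CXCL3: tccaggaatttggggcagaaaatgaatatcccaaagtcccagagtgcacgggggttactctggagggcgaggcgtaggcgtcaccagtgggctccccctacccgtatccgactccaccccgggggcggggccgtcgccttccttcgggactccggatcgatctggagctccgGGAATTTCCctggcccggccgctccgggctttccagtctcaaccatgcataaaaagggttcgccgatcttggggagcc
CXCL14: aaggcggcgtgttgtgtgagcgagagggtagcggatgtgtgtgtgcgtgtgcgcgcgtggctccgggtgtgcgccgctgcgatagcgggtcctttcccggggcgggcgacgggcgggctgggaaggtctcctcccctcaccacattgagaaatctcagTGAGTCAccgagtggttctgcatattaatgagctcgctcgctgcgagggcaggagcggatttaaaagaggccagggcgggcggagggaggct

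The 9 letters GGAATTTCC were found in the windows of *CXCL1*, *CXCL2*, *CXCL3*, *CXCL6* and *CXCL8*, and on the opposite strand in that of *CXCL10*. Searched on both strands, they occurred in 117 of 27305 RefSeq promoters of the same length (0.428%). In *CXCL1*, *CXCL2*, *CXCL3*, *CXCL6* and *CXCL10* they were part of a match to the NF-κB consensus, a motif held by 9.57% of all promoters. This match began 79, 78, 79, 90 and 177 bases before the start. The window of *CXCL14* held no NF-κB consensus match and held a TGANTCA match between 92 and 86 bases before the start, a motif of 6.6% of promoters. *CXCL8* held TGANTCA as well, between 137 and 131 bases before its start. Over these 250 bases, *CXCL1* was 81.4% identical to *CXCL3* and 68% identical to *CXCL2*, but 49.5% identical to *CXCL6* and 42.8% identical to *CXCL8*. *CXCL6* and *CXCL8*, both with lower counts, were 42.4% identical. The window of *CXCL5*, a neighbour with at most 3 reads in any library, is not shown. It held GGAATTTCC within a consensus match as well and was 85.3% identical to that of *CXCL6*. These are matches of letters, and binding was not measured.

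The libraries held between 12276313 and 16317672 counted reads. Levels are given as CPM, read counts brought to the same library size with TMM factors, and 3 counts, taken as the smallest readable signal, corresponded to between 0.187 and 0.249 CPM. This floor covers counting error only. Notch target genes were measured first to check the treatment. *HEY1*, a transcriptional repressor of the Notch pathway, fell from 34.6 ± 1.77 to 8.75 ± 0.796 CPM (mean ± SD, n = 3; log2 fold change -1.98, adjusted p = 2.03e-13, edgeR quasi-likelihood test, Benjamini-Hochberg adjusted). By the same test *NRARP*, a feedback inhibitor of Notch, fell by 1.43, *HES1* by 0.77, *HES2* by 2.45 and *HES4* by 1.48 on the log2 scale. The filter on low counts passed 15001 genes, of which 18% were lower and 17.2% higher with DAPT at an adjusted p under 0.05. Higher genes made up 48.7% of these calls after TMM scaling and 61.5% after scaling by library size alone. Of all tested genes, 22.7% had all DAPT libraries below every control and 23.6% had them above.

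Control replicate 1 stood apart by markers of fibroblasts, a cell type that a carcinoma line should not contain. The 19 listed fibroblast markers summed to 2437 CPM in this library and to between 1313 and 1405 CPM in the other 5, and 14 of the 19 were over 2-fold higher there than in any other library. The 7 defining markers *COL1A1*, *COL1A2*, *COL3A1*, *DCN*, *LUM*, *PDGFRA* and *PDGFRB* summed to 566.3 CPM against 50.02 to 58.35 CPM elsewhere. *COL1A2*, a chain of type I collagen, measured 215 CPM there and between 0.195 and 2.02 CPM in the others. *COL3A1*, *THY1* and *COL1A2* had the highest ratios to the mean of the other controls, at 269.1, 188.9 and 160.1. Endothelial markers did not set this library apart (43.16 CPM against 43.1 to 54.74), nor did leukocyte markers (12.77 CPM against 10.02 to 15.41), with 5 of 12 leukocyte markers at 0 in all 6 libraries, *PECAM1* at no more than 1 read and *PTPRC* at no more than 2 reads. The 9 epithelial markers all had reads in both groups, although *KRT14* had 48, 49 and 36 in the controls and 11, 0 and 8 with DAPT. All DAPT libraries lay below every control for *KRT5*, *KRT14*, *KRT17*, *KRT6A*, *TP63*, *SFN* and *DSP*. The 9 markers summed to 5720 to 5916 CPM in the controls and 3634 to 3874 CPM with DAPT. The basal keratin *KRT5* held the largest share of this sum, with 2701 ± 61.9 CPM in the controls and 1315 ± 43.4 CPM with DAPT. The adhesion genes *CDH1* and *EPCAM* lay higher with DAPT, at 617.1 ± 14.2 against 512.1 ± 18.4 CPM and 372.4 ± 8.07 against 308.2 ± 9.99 CPM. The part of these shifts in the results below was not tested. In bulk RNA, fewer cells of a type and less RNA per cell cannot be told apart.

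The chemokine genes and *ACKR3* did not follow the fibroblast markers. For the 8 tested genes, log2 ratios of control replicate 1 to the mean of the other controls, with 0.5 CPM added to each, lay between -0.29 for *CXCL2* and 0.12 for *CXCL8*, and the 5th and 95th percentiles over all tested genes were -0.34 and 0.33. *CXCL10* had 6 reads in this library and 3 in each of the other controls. *CCL2*, a chemokine that fibroblasts also make, measured 12.4 CPM in this library and 11.3 and 13.2 CPM in the other controls. *CXCL12*, the chief ligand of ACKR3 and a product of stromal cells, behaved otherwise, with 293 reads in control replicate 1, 0 and 2 in the other controls and 0 in every DAPT library. With reads in so few libraries it did not enter the test. Without this library, each of the 6 genes past the threshold kept its direction, with the log2 fold changes given below.

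**Figure D1:**
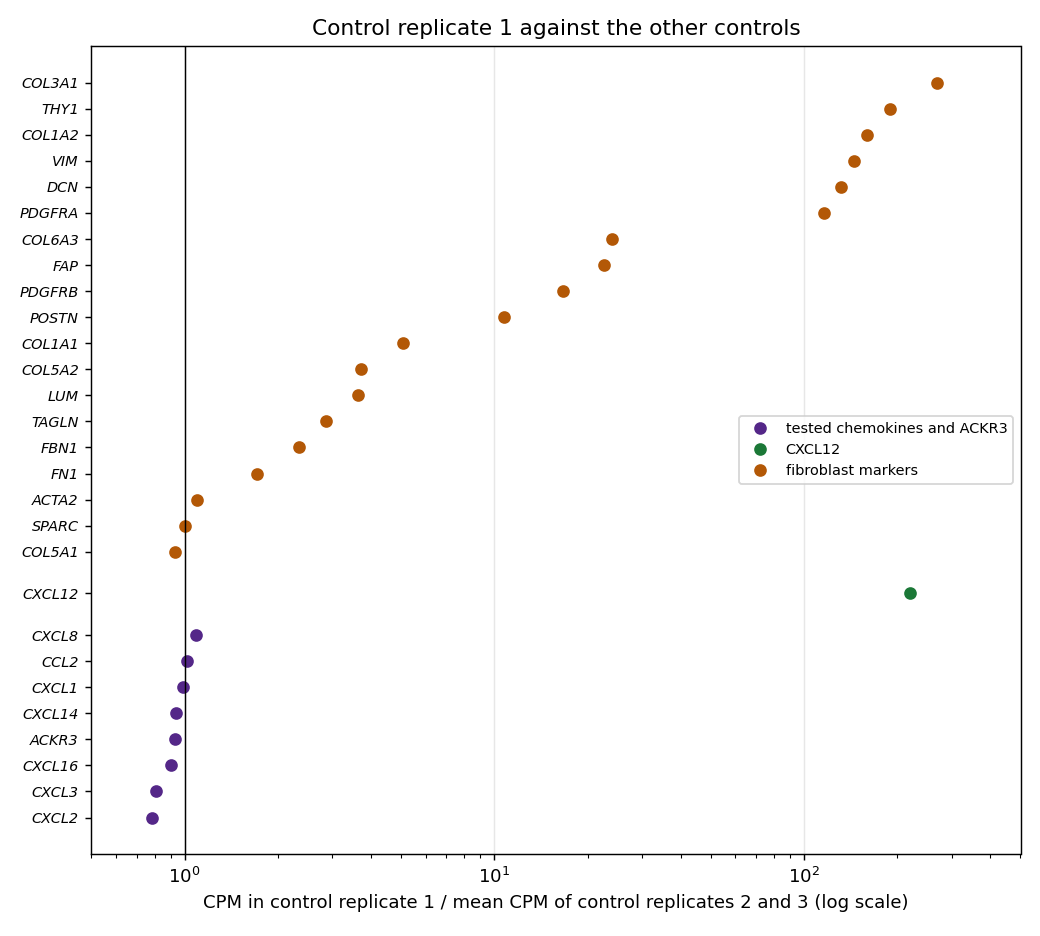
Ratio of CPM in control replicate 1 to the mean CPM of control replicates 2 and 3 on a log axis, 1 point per gene, for fibroblast markers, *CXCL12* and the 8 tested chemokine and *ACKR3* genes. Most fibroblast markers and *CXCL12* lie far to the right of the line at 1, and the 8 tested genes lie between 0.785 and 1.09, ratios taken without an added constant.

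*CXCL1*, an ELR chemokine that attracts neutrophils, was the most abundant of the 10 genes per length of exon in both groups. It lies on the plus strand of chromosome 4 (ENSG00000163739, chr4:73869393-73871242) and measured 149.8, 150.4 and 153.3 CPM in control replicates 1 to 3 and 65.6, 69.0 and 70.4 CPM in DAPT replicates 1 to 3. The groups were far apart and each was tight, with means of 151.2 ± 1.88 and 68.3 ± 2.46 CPM (SD, n = 3 each). The level with DAPT was 2.21-fold lower, a log2 fold change of -1.15 (SE 0.05), and -1.15 without control replicate 1. *CXCL8*, or interleukin 8, the best known of the neutrophil attractants (ENSG00000169429), measured 34.5, 30.9 and 32.6 CPM in the controls and 12.9, 14.5 and 13.4 CPM with DAPT. Its groups did not overlap either, and its log2 fold change was -1.26 (SE 0.08), or 2.40-fold lower, and -1.22 without control replicate 1.

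*CXCL2* and *CXCL3*, close relatives of *CXCL1* that also act through CXCR2, showed no such separation. *CXCL3* (ENSG00000163734, chr4:74036589-74038807) measured 5.17, 6.14 and 6.63 CPM in the controls and 5.52, 6.73 and 7.07 CPM with DAPT. *CXCL2* (ENSG00000081041) measured 2.30, 2.89 and 2.98 CPM in the controls, from 37, 40 and 36 reads, and 2.47, 2.56 and 3.07 CPM with DAPT, from 38, 35 and 40 reads. In both genes the groups overlapped, with log2 fold changes of 0.11 (SE 0.15) for *CXCL3* and -0.01 (SE 0.20) for *CXCL2*. Without control replicate 1 they were 0.01 and -0.12. After scaling by library size alone, which moved the median of all tested genes from 0.01 to 0.06, they were 0.16 and 0.04. These genes share sequence: 7.56% of the 75-base stretches in *CXCL2* transcripts and 4.57% in those of *CXCL3* also occurred in another gene, against 0.233% for *CXCL1*. Reads from such stretches map to several places and were not counted, which makes the counts of both genes less certain.

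**Figure D2:**
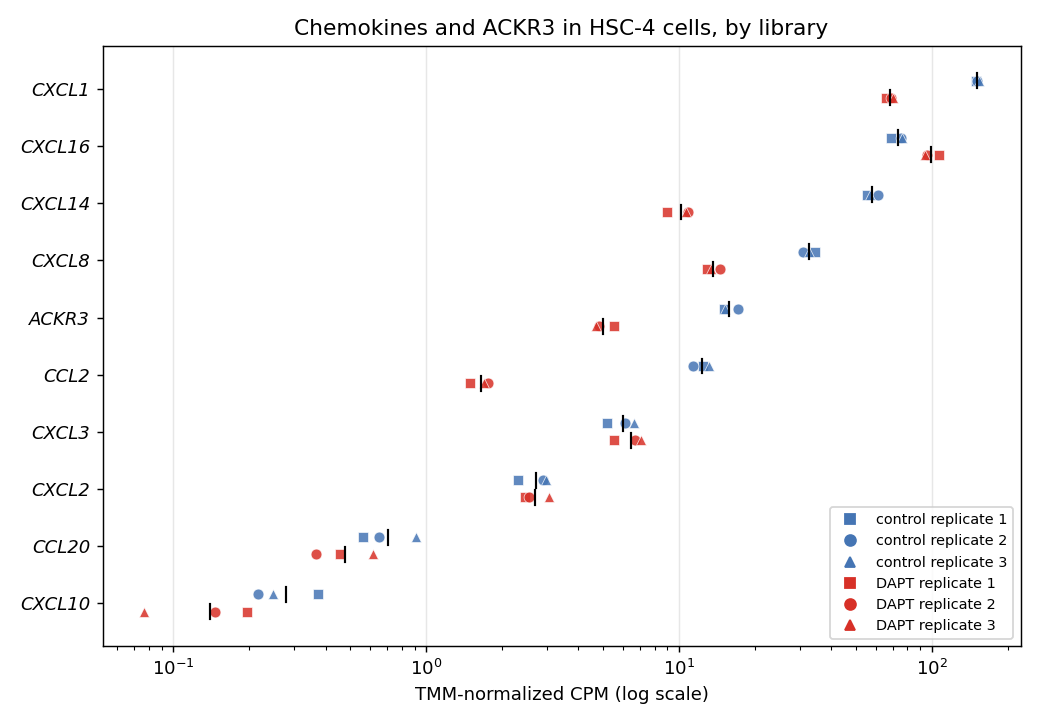
CPM of each of the 10 genes in every library on a log axis, controls above DAPT within each row, with black bars at the group means. *CXCL14*, *CXCL1*, *CXCL8*, *CCL2*, *ACKR3* and, at very few reads, *CXCL10* lie lower with DAPT and *CXCL16* lies higher, whereas *CXCL2*, *CXCL3* and *CCL20* overlap between the groups.

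*CXCL1*, *CXCL2*, *CXCL3* and *CXCL8* belong to a row of 9 CXC ligand genes that spans 359 kb of chromosome 4 on GRCh38, from *CXCL8* (chr4:73740541-73743716) to *CXCL2* (chr4:74097040-74099196). *CXCL6*, another neutrophil attractant, lies between *CXCL8* and *CXCL1* and was not among the genes picked, but belongs to a list also chosen with earlier results known. It fell from 25.2, 25.1 and 24.9 CPM in the controls to 9.81, 9.73 and 10.4 CPM with DAPT (log2 fold change -1.33, SE 0.09, adjusted p = 1.23e-10, edgeR quasi-likelihood test, Benjamini-Hochberg adjusted), was lower in each of 3 DAPT libraries and passed in all 6 fits that left out a library. The 3 genes of this row with lower counts, *CXCL8*, *CXCL6* and *CXCL1*, stand at its *CXCL8* end and on the plus strand, whereas *CXCL3* and *CXCL2* stand at the other end on the minus strand. The remaining genes of the row were barely or not transcribed: *PF4V1* and *PPBP* had 0 reads in every library, *CXCL5* had at most 3 and *PF4* at most 5. *CXCL10*, which also lies on chromosome 4, is 2281 kb from *CXCL8*. Its neighbours *CXCL9*, with 0 reads in all libraries, and *CXCL11*, with at most 7, were near the floor too.

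**Figure D3:**
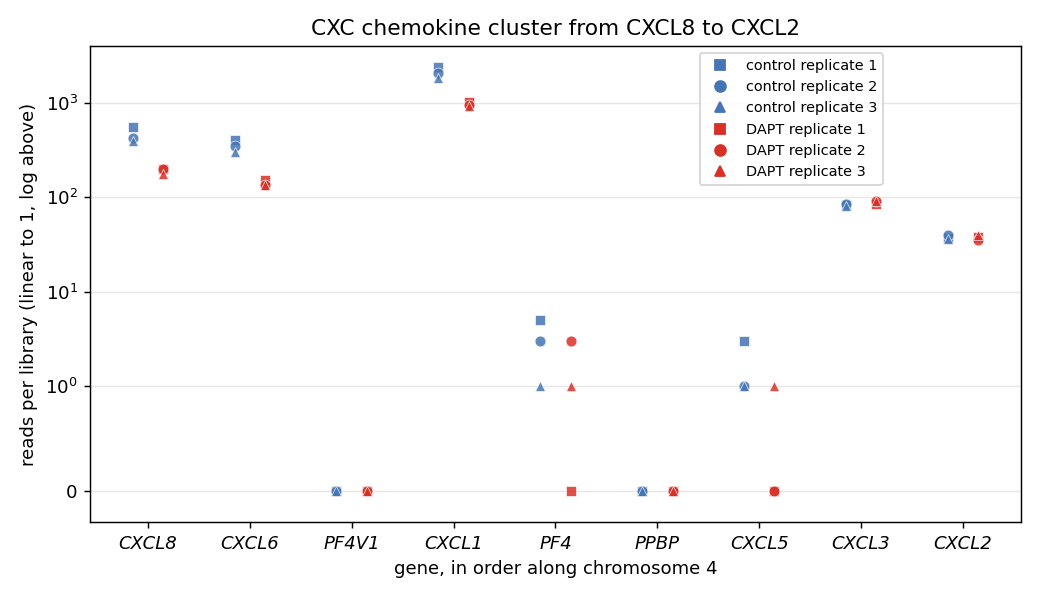
Read counts of the CXC ligand genes of the chromosome 4 row in their order along the chromosome, 1 point per library, on an axis that is linear up to 1 read and logarithmic above. *CXCL8*, *CXCL6* and *CXCL1* have fewer reads in all 3 DAPT libraries, and the points of *CXCL3* and *CXCL2* overlap.

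*CXCL14*, a chemokine made constitutively by squamous epithelium, had the largest drop in absolute level after *CXCL1*. The gene lies on the minus strand of chromosome 5 (ENSG00000145824, chr5:135570679-135579279) and measured 55.5, 61.2 and 56.8 CPM in the controls against 8.96, 10.9 and 10.7 CPM with DAPT. All DAPT libraries were far below all controls, 5.68-fold on the means of 57.9 ± 3.01 and 10.2 ± 1.06 CPM (SD, n = 3 each). The log2 fold change was -2.51 (SE 0.09), and -2.54 without control replicate 1. *CXCL10* (ENSG00000169245, chr4:76021118-76023497), the interferon-induced ligand of CXCR3, was too low for the test, with 6, 3 and 3 reads in the controls and 3, 2 and 1 with DAPT. These counts are near or under the floor of 3, and no fold is given.

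*CXCL16*, a chemokine anchored in the cell membrane that attracts T cells through CXCR6 and also binds oxidized lipoproteins, was alone among the 10 in having all DAPT libraries above the controls. The gene lies on the minus strand of chromosome 17 (ENSG00000161921, chr17:4733533-4739928) and measured 68.8, 75.8 and 76.5 CPM in the controls and 107.1, 95.9 and 94.0 CPM with DAPT. The means were 73.7 ± 4.24 and 99.0 ± 7.11 CPM (SD, n = 3 each), or 1.34-fold higher with DAPT. The log2 fold change of 0.43 (SE 0.06) was 0.38 without control replicate 1 and 0.48 after scaling by library size alone.

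Among the CC chemokines, *CCL2*, which attracts monocytes through CCR2, had the largest fold change of the 10 genes. It lies on the plus strand of chromosome 17 (ENSG00000108691, chr17:34255218-34257203) and was read 200, 157 and 159 times in the controls and 23, 24 and 22 times with DAPT. These reads gave 12.4, 11.3 and 13.2 CPM against 1.49, 1.75 and 1.69 CPM, 7.48-fold lower on the means, with a log2 fold change of -2.90 (SE 0.16) and -2.89 without control replicate 1. *CCL20* (ENSG00000115009, chr2:227805739-227817564), the ligand of CCR6 on dendritic cells and T helper cells, was too low for the test, with 9, 9 and 11 reads in the controls and 7, 5 and 8 with DAPT. Its groups overlapped in CPM.

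*ACKR3*, the scavenger receptor, lies on the plus strand of chromosome 2 (ENSG00000144476, chr2:236567787-236582354) and measured 15.01, 17.12 and 15.16 CPM in the controls and 5.52, 4.83 and 4.69 CPM with DAPT. The groups did not overlap, and the means of 15.8 ± 1.18 and 5.01 ± 0.447 CPM (SD, n = 3 each) were 3.15-fold apart. The log2 fold change was -1.65 (SE 0.12), and -1.68 without control replicate 1.

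Counted together, 8 of the 10 genes passed the filter on low counts, and 5 of these were lower and 1 higher at the threshold used for all genes, where 18% and 17.2% of all tested genes were. Since this contrast led to the choice of the genes, nothing is read from these counts. The median log2 fold change of the 8 was -1.21, against 0.01 over all tested genes. All DAPT libraries lay below every control in 6 of the 10, among them the untested *CXCL10* with at most 6 reads, and above in 1. Of all tested genes, 22.7% lay below in this way and 23.6% above, and nothing is read from these counts either.

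Divided by exon length, the levels can be ordered between genes. In the controls *CXCL1* led with 116.6 ± 1.45 CPM per kb, followed by *CXCL14* with 29.3 ± 1.53, *CXCL16* with 26.4 ± 1.52, *CXCL8* with 14.6 ± 0.803, *ACKR3* with 7.61 ± 0.568 and *CCL2* with 6.20 ± 0.465 CPM per kb (SD, n = 3). *CXCL3*, *CXCL2*, *CCL20* and *CXCL10* came after, from 2.69 ± 0.334 down to 0.238 ± 0.0706 CPM per kb. No neighbours in this order overlapped between libraries. With DAPT the order became *CXCL1* at 52.7 ± 1.90, *CXCL16* at 35.4 ± 2.55, *CXCL8* at 6.08 ± 0.353, *CXCL14* at 5.15 ± 0.536, *CXCL3* at 2.90 ± 0.366 and *ACKR3* at 2.42 ± 0.216 CPM per kb, with *CXCL3* and *ACKR3* overlapping. *CXCL2* at 1.93 ± 0.233 and *CCL2* at 0.829 ± 0.0684 CPM per kb followed.

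The reads of all 46 chemokine ligand genes listed, the 9 above and 37 others, summed to 411, 399.8 and 408 CPM in the controls and to 255, 251.5 and 250.6 CPM with DAPT. In control replicate 1 this sum includes 18.25 CPM of *CXCL12*, the stromal chemokine found almost only in that library, and the control shares below are of the sum with it. The make-up of this sum, which counts reads and is not corrected for length, differed between the groups. *CXCL1* accounted for 37.2% of it in the controls and 27.1% with DAPT, *CXCL14* for 14.2% and 4.03%, and *CXCL16* for 18.1% and 39.2%. Of the 13 other CXC, XC and CX3C ligands, 2 were tested, *CXCL6* as given and *XCL1*, with 20 to 23 reads in every library (log2 fold change -0.03, SE 0.26). Of the 24 other CC ligands, 15 had no read in any library and 1 was tested, the mucosal chemokine *CCL28*, at 31.9 to 36.7 CPM in the controls and 36.8 to 37.4 CPM with DAPT (log2 fold change 0.11, SE 0.07), which was not called.

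Receptors for these ligands were scarce in the HSC-4 libraries. Of 18 chemokine receptors that signal through G proteins, 7 had no read in any library, *CXCR4*, a receptor of CXCL12, among them, and 3 were tested. *CXCR2*, the receptor of the ELR chemokines, had 29, 27 and 28 reads in the controls and 27, 27 and 22 with DAPT. *CCR3* had between 14 and 27 reads and *CCR10*, the receptor of CCL28, between 17 and 37, and neither was called. Of the 5 other atypical receptors, *ACKR2*, a scavenger of CC chemokines, was tested and not called (log2 fold change -0.19, SE 0.28). None of these 4 receptors passed at an unadjusted p under 0.05 in edgeR (0 lower, 0 higher), and DESeq2 and limma-voom also called 0.

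Of 11 listed genes known to work with ACKR3, 8 were tested, and 3 were lower, 2 higher and 3 not called. Of all tested genes, 18% were lower and 17.2% higher. The median log2 fold change of the list was -0.24 against 0.01 over all tested genes. The calls depended on single libraries: the lower count was 1 without control replicate 3 and 5 without DAPT replicate 1, and the higher count was 0 without DAPT replicate 3 and in DESeq2. *GRK5*, a kinase that phosphorylates receptors ahead of arrestin binding, fell from 41.7 ± 4.85 to 29.3 ± 2.63 CPM (n = 3; log2 fold change -0.50, adjusted p = 0.000156, edgeR quasi-likelihood test, Benjamini-Hochberg adjusted). *ADM*, which encodes adrenomedullin, a peptide that ACKR3 also binds, fell from 35.3 ± 3.05 to 29.0 ± 1.66 CPM (log2 fold change -0.28, adjusted p = 0.00938). *ARRB2*, one of the arrestins, fell by 0.22 on the log2 scale and *GRK3* rose by 0.27, with adjusted p of 0.0213 and 0.0158 by the same test. *GRK6* rose by 0.20 (adjusted p = 0.0493). In the 6 fits that each left out a library, *ADM* kept its call in 5, *GRK3* in 4, *ARRB2* in 2 and *GRK6* in 1, and *ARRB2* also lost it after scaling by library size alone (adjusted p = 0.061).

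For the subunits of NF-κB and the kinases and adaptors that activate it, only mRNA was counted, and NF-κB activity was not measured. All 17 listed genes were tested, and edgeR called 6 higher, 0 lower and 11 in neither direction, with a median log2 fold change of 0.12. Of all tested genes, 18% were lower and 17.2% higher. At an unadjusted p under 0.05, 0 of the 17 were lower and 7 higher. After scaling by library size alone, 0 of the list were called lower and 9 higher. DESeq2 called 0 lower and 3 higher and limma-voom 0 lower and 6 higher, and without control replicate 1 edgeR called 1 lower, *IRAK1*. *RELB*, a subunit of the alternative pathway, rose from 19.2 ± 2.99 to 26.4 ± 1.88 CPM (n = 3; log2 fold change 0.46, adjusted p = 0.000942, edgeR quasi-likelihood test, Benjamini-Hochberg adjusted). *IRAK4* and *TRAF6*, which relay signals of the interleukin 1 receptor, rose by 0.32 and 0.26 on the log2 scale (adjusted p = 0.00679 and 0.0359), with overlapping groups for *TRAF6*. *NFKB1* and *RELA*, the subunits of the classical dimer, had log2 fold changes of -0.07 and 0.12 and were not called (adjusted p = 0.345 and 0.0965 by the same test). *RELA* passed after scaling by library size alone (adjusted p = 0.0187).

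Of 15 inhibitors and feedback genes of NF-κB, all tested, 3 were lower and 3 higher, where 18% and 17.2% of all tested genes were, and the median log2 fold change was 0.07. *TNFAIP3*, which encodes the inhibitor A20, fell from 245.8 ± 3.77 to 205.5 ± 1.26 CPM (n = 3; log2 fold change -0.26, adjusted p = 0.00018, edgeR quasi-likelihood test, Benjamini-Hochberg adjusted), and *TNIP3* and *NFKBID*, further inhibitors, fell by 0.53 and 0.57 on the log2 scale. *BIRC3*, an inhibitor of apoptosis, rose from 53.4 ± 2.30 to 67.3 ± 2.19 CPM (log2 fold change 0.33, adjusted p = 0.000189), and *TRAF1* rose by 0.51. *NFKBIA*, the gene of the inhibitor IκBα, went from 287.7 ± 15.4 to 318.5 ± 14.6 CPM (log2 fold change 0.15, adjusted p = 0.0316), a call lost without control replicate 1 (adjusted p = 0.0813).

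Of 16 tested inflammatory genes other than chemokines that are induced through NF-κB, 5 were lower and 4 higher. Of all tested genes, 18% were lower and 17.2% higher. The median log2 fold change of the 16 was -0.08 against 0.01 over all tested genes. *LCN2*, an iron-binding defence protein of epithelia, rose from 58.0, 65.2 and 59.9 CPM to 113.8, 108.7 and 98.6 CPM (log2 fold change 0.81, adjusted p = 1.36e-09, edgeR quasi-likelihood test, Benjamini-Hochberg adjusted). The cytokine gene *IL6* rose from 8.41 ± 0.825 to 11.9 ± 0.621 CPM (n = 3; log2 fold change 0.51, adjusted p = 0.0014) and *IL1A* by 0.23. *IL1B*, by contrast, fell from 40.1 ± 1.05 to 29.3 ± 0.628 CPM (log2 fold change -0.45, adjusted p = 3.59e-05), and *SAA1*, an acute phase protein, fell by 0.45. *IL36G*, a cytokine of squamous epithelia, had 35, 25 and 24 reads in the controls and 21, 9 and 3 with DAPT. Its log2 fold change of -1.35 (SE 0.37) is uncertain, since the DAPT libraries differed widely and the lowest was at the floor of 3. Another list held receptors of cytokines that induce chemokines, receptor antagonists and Toll-like receptors. Among its 15 tested genes, 1 was lower, *IL1RAP*, the shared chain of interleukin 1 receptors (log2 fold change -0.37, adjusted p = 3.04e-05 by the same test). There 2 were higher, the Toll-like receptor gene *TLR3* by 0.37 and the cytokine receptor gene *IL6ST* by 0.31.

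Interferon response genes mostly lay higher. Of 14 tested, 11 had a positive log2 fold change and the median was 0.47, but 2 passed as higher and 1 as lower. Of all tested genes, 17.2% were higher and 18% lower. With the replicate number included in the fit, more genes of the list passed as higher, as given in the last section. *IRF7*, a transcription factor of the interferon response, rose from 38.9 ± 2.51 to 74.8 ± 5.63 CPM (n = 3; log2 fold change 0.94, adjusted p = 6.65e-10, edgeR quasi-likelihood test, Benjamini-Hochberg adjusted), and *ISG15*, a ubiquitin-like protein, rose from 61.3 ± 2.24 to 97.2 ± 14.1 CPM (log2 fold change 0.66, adjusted p = 4.98e-05). *GBP2* fell from 48.7 ± 4.22 to 35.4 ± 2.70 CPM (log2 fold change -0.46, adjusted p = 8.75e-05). Without control replicate 1, 6 genes of the list were higher and 1 lower. *CXCL10*, which belongs to the same response, stayed near the floor as given above.

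Factors that act on AU-rich mRNAs, 12 in all, included 4 lower and 2 higher genes, where 18% and 17.2% of all tested genes were. *ZFP36*, or tristetraprolin, which speeds the decay of chemokine mRNAs, rose from 18.7 ± 1.21 to 26.6 ± 2.58 CPM (n = 3; log2 fold change 0.52, adjusted p = 6.78e-05, edgeR quasi-likelihood test, Benjamini-Hochberg adjusted). *TIA1*, which restrains translation of such mRNAs, rose by 0.29 on the log2 scale. *ZC3H12A*, the endonuclease Regnase-1, fell from 89.1 ± 8.20 to 71.5 ± 2.42 CPM (log2 fold change -0.31, adjusted p = 0.000568), *HNRNPD*, or AUF1, by 0.26, and *ELAVL1*, or HuR, which stabilizes them, by 0.24. RNA decay was not measured.

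Proteases that shed or trim chemokines held the steepest falls of the 12 lists. Of 14 listed, 9 were tested, and 5 were lower and 1 higher, where 18% and 17.2% of all tested genes were. Their median log2 fold change was -0.93. *MMP1*, the interstitial collagenase, fell from 716.3, 678 and 634.4 CPM to 156.2, 167.1 and 166.3 CPM (log2 fold change -2.05, SE 0.05, adjusted p = 2.89e-17, edgeR quasi-likelihood test, Benjamini-Hochberg adjusted). *MMP13*, another collagenase, fell from 43.1 ± 0.565 to 12.1 ± 0.480 CPM (n = 3; log2 fold change -1.84, adjusted p = 6.78e-14), and *MMP12*, which inactivates ELR chemokines, fell from 18, 12 and 14 reads to 8, 2 and 1 (adjusted p = 0.00317 by the same test). With 2 of these libraries under 3 reads, no fold is given for it. *ADAM10*, which releases CXCL16 from the membrane, went from 455.9 ± 13.1 to 497.4 ± 12.1 CPM (log2 fold change 0.13, adjusted p = 0.0416), a call kept in 1 of 6 fits without a library. *MMP2*, a gelatinase that fibroblasts also make, fell by 0.93, and by 0.75 without control replicate 1, in which its CPM was 1.38 times the mean of the other controls. *ADAM17*, a related sheddase, was not called (log2 fold change -0.09, adjusted p = 0.163).

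Over the 12 lists, 113 of 182 genes were tested, and 23 were lower, 22 higher and 68 not called, with a median log2 fold change of 0.02. Of all 15001 tested genes, 18% were lower and 17.2% higher. After scaling by library size alone, 21 were lower and 31 higher.

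**Figure D4:**
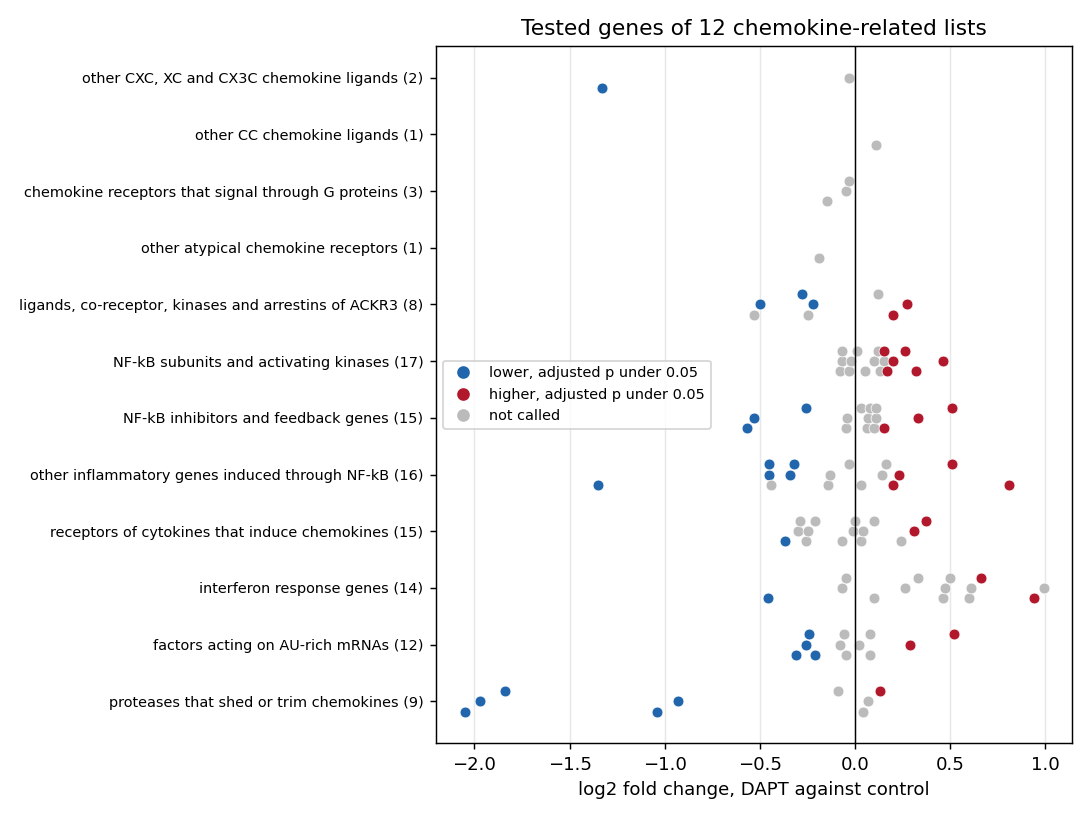
Log2 fold change of DAPT against control for every tested gene of the 12 lists, 1 row per list with the number tested in parentheses, coloured by the call at an adjusted p under 0.05. *CXCL6* at -1.33, *IL36G* at -1.35 and 5 proteases, between -2.05 and -0.93, lie far to the left. The genes of NF-κB and its activating kinases and adaptors lie near 0 or to the right.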

How the data were processed

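Libraries of mRNA from 6 HSC-4 samples were prepared with a directional kit and sequenced as 75-base single-end reads. The authors used Trim Galore for trimming, HISAT2 for mapping to GRCh38 and featureCounts 1.6.3 for strand-specific counting against Ensembl release 96. The deposited values are raw counts per gene, 1 table per library. Reads that map to several places or overlap several genes are left out by default. The submitters' processing notes also name HTSeq and DESeq2, without a role. The sample labels gave groups and replicate numbers, and the study's methods gave dose and time. Of 58884 genes, 58472 were matched by identifier to symbols of GENCODE.

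Counts were analysed with edgeR 4.0.16 in R 4.3.3: filterByExpr with a minimum count of 10, TMM, a robust glmQLFit and glmQLFTest. P-values were adjusted over 15001 genes by the Benjamini-Hochberg method, and calls were made at an adjusted p under 0.05. CPM values are TMM-scaled. Total counts per library lay between 12276313 and 16317672, and 3 counts were taken as the floor. P-values measure the spread between these libraries only. The genes described and the lists were chosen with earlier results of these data known, so the fit's p-values for the 10 genes are not printed, although 8 of them entered it. Adjusted p-values printed for genes of the lists come from the same data and are not independent support. Genes named from the 12 lists were those called, at most 3 in each direction with the largest log2 fold change, together with set genes of the *CXCL12*, NF-κB, shedding and decay steps and of the chromosome 4 row. *XCL1*, *CCL28*, *CXCR2*, *CCR3*, *CCR10* and *ACKR2*, of whose lists few genes were tested, were named after their values were seen. The same holds for *IRAK1*, *MMP2*, *CXCL10* among the motif matches, and the epithelial markers. Alternatives were DESeq2 1.42.0, limma-voom (limma 3.58.1), RLE normalization, library size alone, no filter on low counts, at least 10 counts in every library, a block for the replicate number and each of 6 libraries left out. Of these fits, only the main edgeR fit was tried on simulated counts.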

Additional observations from a re-analysis of the deposited data

How the results depend on the processing

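The 8 tested genes kept their values closely under the 7 alternatives and the 6 fits without a library: 5 were lower and 1 higher in each fit, and their median log2 fold change of -1.21 lay between -1.23 and -1.17 when a library was left out. It was -1.05 without the filter on low counts, where *CCL20* and *CXCL10* enter the median. *CXCL1* moved to -1.10 after scaling by library size alone. Among the other genes named by the rule, 8 lost their call under at least 1 alternative (*ADAM10*, *ADM*, *ARRB2*, *GRK3*, *GRK6*, *IL1A*, *NFKBIA* and *TRAF6*) and *RELA* gained one. *IRAK1*, named outside the rule, gained one without control replicate 1. Over all genes, leaving out a library gave 2190 to 2892 lower and 1901 to 2726 higher genes, and over the 12 lists 20 to 26 lower and 16 to 25 higher. The ratio of summed fibroblast markers in control replicate 1, 1.74 after TMM scaling, was 1.75 after RLE and 2.79 without *FN1*, *VIM*, *SPARC* and *TAGLN*. With a block for the replicate number, 2737 genes were lower and 2558 higher, the 8 genes had 5 lower and 1 higher with a median of -1.21, and the lists had 25 lower and 30 higher, with 9 interferon genes higher instead of 2. Deviations of same-numbered libraries correlated at 0.0208, 0.0334 and 0.003 over the tested genes, and 4 of 6 libraries correlated best with their own number. These values cannot settle whether the numbers pair the libraries, since a difference shared by few genes would hardly move them. *CXCL10* and *CCL20*, with at most 11 reads in any library, were too shallow for a comparison.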
